A study of Arabidopsis thaliana with 12 samples.

Results

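The primary wall cellulose synthesis genes are the genes for the machinery that spins cellulose microfibrils around growing cells of Arabidopsis thaliana. The set was chosen by name: the cellulose synthase genes CESA1, CESA2, CESA3, CESA5 and CESA6, and the accessory genes COB, KOR1 and CSI1. All 8 were measured, among 19522 genes in the table. Their levels were not used to choose them, although earlier results of these data were known when the set was drawn up.

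Cellulose of the primary wall is made at the plasma membrane by rosette-shaped complexes of cellulose synthases, which move along cortical microtubules while they extrude glucan chains made from UDP-glucose. CESA1 and CESA3 each hold a fixed position in these complexes. CESA6 and its close relatives CESA2 and CESA5 share the remaining position and can stand in for each other only in part. KOR1 (KORRIGAN, RefSeq symbol GH9A1) is a membrane-bound endoglucanase that travels with the complex, COB (COBRA) is a GPI-anchored wall protein needed for oriented cell expansion, and CSI1 (also POM2) is the linker between the complex and microtubules. In dark-grown hypocotyls and in roots, mutants in several of these genes are known for short, swollen organs.

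The study measured mRNA by sequencing of whole seedlings, 4 days old, in 12 libraries: 3 each from wild-type Col-0 without glucose, Col-0 with glucose, ein2-5 without glucose and ein2-5 with glucose. All seedlings grew in liquid half-strength MS medium lacking glucose under equal light and dark periods, and the glucose groups were those given 15 mM glucose for 2 h, a comparison of sugar depletion with recovery. ein2-5 is a mutant of EIN2, a membrane protein through which the ethylene signal passes, and the mutants are known as ethylene-insensitive. Groups were taken from the sample titles, since the labels carry the word glucose as treatment on all 12 samples. Nothing in the labels tells if a group's libraries were grown as separate cultures, so the p-values rest on a spread among libraries that may be in part technical. In whole seedlings, fewer cells of a type and less RNA per cell cannot be told apart.

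The libraries held 11470134 to 17461274 reads. EIN2 itself was at 125 to 137 CPM (counts per 1000000 reads in genes) in Col-0 without glucose and at 43.4 to 60.2 CPM in ein2-5 without glucose, which is −1.27 on the log2 scale (limma adjusted p = 1.61e-06). Summed reads of 11 seed storage genes were 1.67 to 5.84 CPM in 5 of the 6 Col-0 libraries and 157 CPM in Col-0 without glucose 1. In ein2-5 they were 764 to 1320 CPM without glucose, and 141, 2164 and 3375 CPM with glucose. Col-0 without glucose 1 and ein2-5 with glucose 2 and 3, each high within its own group, are called the 3 seed-rich libraries here. The name does not cover the ein2-5 libraries without glucose, which held more of these reads than the Col-0 library, and within ein2-5 with glucose it was library 1 that stood apart, on the low side. Green shoot and root hair markers were present in all 12 libraries, as whole seedlings would have them, with summed levels of 14430 to 30010 CPM for 5 green shoot genes and 19.5 to 111 CPM for 5 root hair genes.

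Of the 8 genes, 5 lie on chromosome 5, 2 on chromosome 4 and 1 on chromosome 2 (RefSeq annotation of TAIR10.1). CESA1 (AT4G32410) lies at chr4:15640490-15646844 on the minus strand and CESA2 (AT4G39350) at chr4:18296388-18302192 on the plus strand. CESA3 (AT5G05170) lies at chr5:1530132-1535558 (minus), CESA5 (AT5G09870) at chr5:3072870-3078416 (plus) and CESA6 (AT5G64740) at chr5:25881033-25886728 (plus). COB (AT5G60920) lies at chr5:24511152-24514338 (minus), KOR1 (AT5G49720) at chr5:20197391-20200468 (minus) and CSI1 (AT2G22125) at chr2:9406059-9414578 (plus). The 5 CESA genes have 13 to 15 exons, KOR1 has 6, COB 7 and CSI1 8. CESA5 and CESA6 were the most alike of the set, with 86.0% of 3205 aligned coding bases identical, yet only 1 of 4089 stretches of 50 bases in the CESA5 transcript occurs in CESA6. The highest share of such stretches held in common with another gene was 0.662%, for CESA3, from an opposite-strand overlap of 74 bases with RUL1. CESA1, KOR1 and CSI1 overlap a gene on the opposite strand by 22 to 29 bases, and the strand setting of the counting is not given in the sources used here.

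The promoters of 5 genes are printed because each holds 1 of the 2 runs described here. Other pairs of the set shared runs of 11 bases, among them CESA5 with CSI1 (AAAGTCAATTT) and CESA2 with CSI1 (TAAAAAACAAT). A link between shared runs and the size of the glucose response was not tested. Each is the 250 bases before the annotated start, read 5′ to 3′ on the gene's strand. Capitals mark runs that were picked after the sequences had been read: GGTCCCAC, held by CESA5 and CESA6, and CCACCGACA, held by CESA1, COB and KOR1.
CESA5 (chr5:3072620-3072869, plus strand): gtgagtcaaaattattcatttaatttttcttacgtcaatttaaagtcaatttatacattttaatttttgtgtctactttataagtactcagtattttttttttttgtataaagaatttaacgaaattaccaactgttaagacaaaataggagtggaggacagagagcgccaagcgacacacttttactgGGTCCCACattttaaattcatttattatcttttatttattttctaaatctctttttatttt
CESA6 (chr5:25880783-25881032, plus strand): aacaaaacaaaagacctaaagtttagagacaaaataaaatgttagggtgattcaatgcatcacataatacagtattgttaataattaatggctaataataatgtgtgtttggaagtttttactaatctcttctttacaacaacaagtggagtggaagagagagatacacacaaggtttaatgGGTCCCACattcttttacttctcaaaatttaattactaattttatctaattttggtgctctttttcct
CESA1 (chr4:15646845-15647094, minus strand): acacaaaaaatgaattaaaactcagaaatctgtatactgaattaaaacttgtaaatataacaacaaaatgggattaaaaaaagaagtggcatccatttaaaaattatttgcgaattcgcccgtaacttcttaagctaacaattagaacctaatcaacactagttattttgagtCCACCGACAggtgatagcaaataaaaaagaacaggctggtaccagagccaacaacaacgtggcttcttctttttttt
COB (chr5:24514339-24514588, minus strand): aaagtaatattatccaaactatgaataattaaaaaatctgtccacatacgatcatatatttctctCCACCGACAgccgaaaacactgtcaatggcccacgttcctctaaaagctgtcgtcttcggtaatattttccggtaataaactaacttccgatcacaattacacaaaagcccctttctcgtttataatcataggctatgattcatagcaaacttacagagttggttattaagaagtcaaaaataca
KOR1 (chr5:20200469-20200718, minus strand): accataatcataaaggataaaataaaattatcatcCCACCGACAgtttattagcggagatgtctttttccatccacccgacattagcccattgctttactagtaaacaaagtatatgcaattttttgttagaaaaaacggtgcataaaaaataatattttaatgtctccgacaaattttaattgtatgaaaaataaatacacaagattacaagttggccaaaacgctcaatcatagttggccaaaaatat
The CESA5 and CESA6 promoters shared TGGGTCCCACATT, 13 bases long, which begins at position −63 of CESA5, counted from the annotated start. Its core GGTCCCAC lay at −61 to −54 in CESA5 and at −68 to −61 in CESA6, and was found, on either strand, in 88 of 18917 promoters of genes in the table (0.465%). CCACCGACA was found in 26 promoters (0.137%), and the longer CCACCGACAG, which CESA1, COB and KOR1 all hold, in 8 (0.0423%). CESA2, CESA3 and CSI1 held neither run. A further 6 motifs were searched for on both strands. Of these, CACGTG (in 7.54% of the 18917 promoters), CGTGTG (in 5.56%), CGTGCG (in 1.73%), ACTCAT (in 11.8%) and the telo box (in 3.5%) were in 0 of the 8 promoters. TGGGCC was in that of COB, at −158 to −153 on the opposite strand, and in 16.7% of all. These matches describe letters in a window, and no test was made of them.

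**Figure D1:**
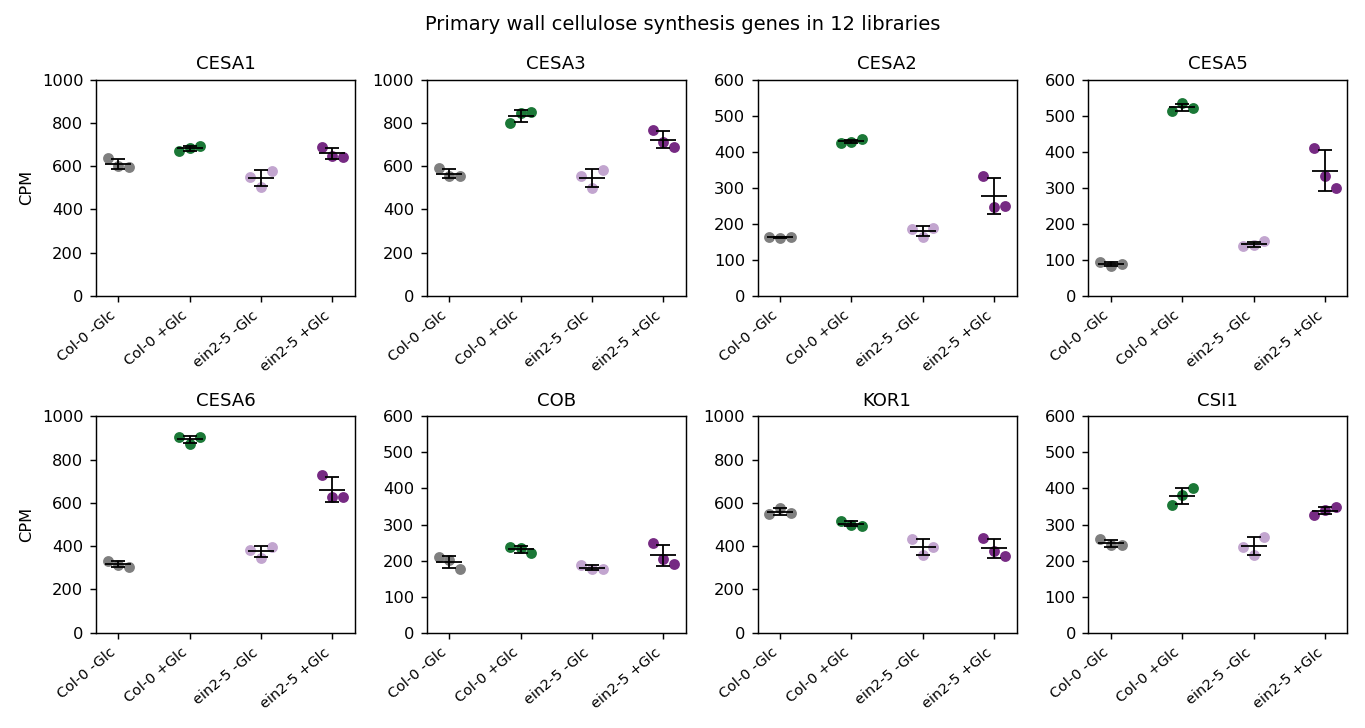
CPM of the 8 genes in each of 12 libraries (points), with the mean and SD of each group of 3 (black); the upper limit of the axis differs between genes. With glucose, the Col-0 libraries of CESA5 stood at 514 to 534 CPM against 84.1 to 93.3 CPM without, whereas those of KOR1 stood at 495 to 517 CPM against 548 to 578 CPM.

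Glucose was followed in Col-0 by higher levels of the 3 members of the set that share a position, CESA5 by 5.93-fold, CESA6 by 2.83-fold and CESA2 by 2.64-fold. CESA9, with 84.7% of its aligned coding bases identical to CESA2, was not part of the set. CESA3 (1.47-fold) and CSI1 (1.53-fold) had smaller rises. CESA1, COB and KOR1 did not pass the test. Thus 5 of 8 genes were called higher and 0 lower (limma on log2(CPM + 1), adjusted p below 0.05 over all genes), against 40.6% of all 19522 genes called higher and 19.7% called lower. After scaling the libraries by TMM (trimmed mean of M values), which moved the median of all genes from 0.19 to 0.01, 5 were called higher and 1 lower, against 30.6% and 29.9% of all genes. Every treated library lay above every untreated one in 7 of the 8 genes and below in 1, against 45.9% and 24.1% of all genes. The median log2 difference of the 8 genes was 0.58, and that of all genes 0.19. At a log2 difference of at least 1, 3 of the 8 genes were called higher, against 12.1% of all genes.

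CESA5, known also from the mucilage of the seed coat, was at 93.3, 84.1 and 87.2 CPM in Col-0 without glucose and at 514, 534 and 523 CPM with it. The groups were far apart, and the spread within each was narrow. The log2 difference was 2.56 ± 0.104 (SE; limma adjusted p = 8.13e-10), and 108 of 19522 genes, 0.553%, rose by more.

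CESA6, whose mutants are known as procuste1, was at 331, 314 and 304 CPM without glucose and at 903, 874 and 904 CPM with it. CESA2 was at 164, 161 and 162 CPM without glucose and at 425, 426 and 434 CPM with it. For both genes every treated library was above every untreated one. The log2 difference was 1.50 ± 0.096 for CESA6 (limma adjusted p = 3.4e-08) and 1.40 ± 0.109 for CESA2 (limma adjusted p = 1.76e-07). By size of rise, 4.77% of all genes stood above CESA6 and 5.76% above CESA2.

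Of the subunits with a fixed position, CESA3 was at 591, 555 and 553 CPM without glucose and at 800, 845 and 849 CPM with it. The groups did not overlap, and the log2 difference was 0.55 ± 0.098 (limma adjusted p = 0.000267). CESA1 was at 636, 600 and 597 CPM without glucose and at 670, 686 and 692 CPM with it. These groups lay side by side without overlap, and the log2 difference of 0.16 ± 0.092 did not pass (limma adjusted p = 0.152, 95% interval −0.04 to 0.36). After TMM scaling the CESA1 value was −0.05.

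Among the accessory genes, CSI1 was at 260, 242 and 243 CPM without glucose and at 355, 382 and 400 CPM with it. The treated libraries were all higher, by a log2 difference of 0.61 ± 0.092 (limma adjusted p = 7.19e-05). COB was at 210, 201 and 176 CPM without glucose and at 237, 235 and 221 CPM with it, again without overlap, and its difference was 0.24 ± 0.102 on the log2 scale (limma adjusted p = 0.0591). It passed without the 3 seed-rich libraries, at 0.29 (limma adjusted p = 0.0189), and when Col-0 without glucose 1, ein2-5 with glucose 1 or ein2-5 with glucose 3 was left out (limma adjusted p = 0.0488, 0.0205 and 0.0426). KOR1 ran the other way, at 548, 578 and 552 CPM without glucose and at 517, 499 and 495 CPM with it. All 3 treated libraries were below the untreated ones, and the log2 difference was −0.15 ± 0.103 (limma adjusted p = 0.221). After TMM scaling KOR1 fell by 0.36 on the log2 scale (limma adjusted p = 0.00488). In a fit of the Col-0 libraries alone the deposited values of KOR1 and CESA1 passed in opposite directions (limma adjusted p = 0.0394 and 0.0356).

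In Col-0 the summed green shoot markers were 28220 to 30010 CPM without glucose and 23140 to 24220 CPM with it, and the summed root hair markers 19.5 to 23.5 CPM and 41.4 to 49.9 CPM. Of 5 root hair genes 4 rose, and of 5 green shoot genes 2 fell (limma), against 40.6% of all genes called higher and 19.7% called lower. The part of these markers in the rise of the cellulose genes was not tested.

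**Figure D2:**
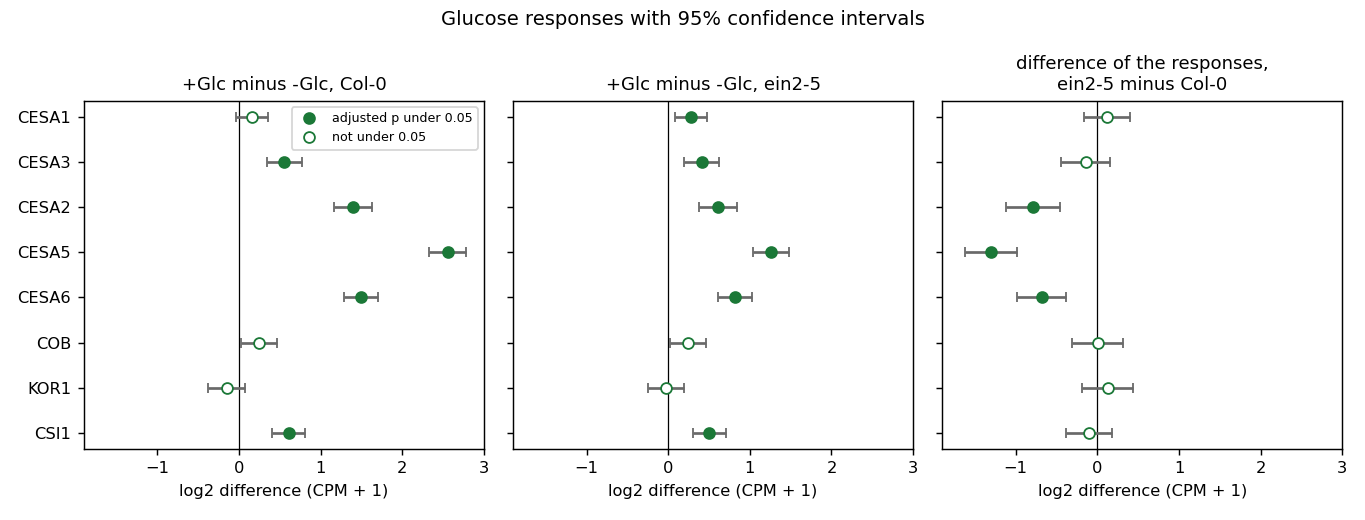
Log2 difference (CPM + 1) of each gene with its 95% confidence interval: the glucose response in Col-0, in ein2-5, and the difference of the responses, all on one axis scale. CESA2, CESA5 and CESA6 stand to the right in both genotypes and are the only filled points in the panel of the differences, at −0.79, −1.30 and −0.68.

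In ein2-5 the same comparison gave 6 of 8 genes called higher and 0 lower, against 26.5% and 16.4% of all genes. The treated libraries were clear of the untreated ones and higher in 7 genes and lower in 0, against 30.1% and 18% of all genes. CESA5 again had the widest change, 2.42-fold, followed by CESA6 at 1.76-fold and CESA2 at 1.54-fold. The median log2 difference was 0.46 for the 8 genes and 0.09 for all genes. The markers moved here as well. Of 5 root hair genes 4 rose (limma), against 26.5% of all genes. Their summed levels were 39.7 to 48.8 CPM without glucose and 68.0 to 111 CPM with it. Of 5 green shoot genes 3 fell (limma), against 16.4% of all genes. The part of these markers in the change of the cellulose genes was not tested.

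In ein2-5, CESA5 was at 139, 140 and 152 CPM without glucose and at 410, 333 and 300 CPM with it (log2 difference 1.26 ± 0.104, limma adjusted p = 2.14e-06). CESA6 was at 383, 347 and 397 CPM without glucose and at 729, 626 and 629 CPM with it (0.81 ± 0.096, limma adjusted p = 3.51e-05). CESA2 was at 187, 165 and 188 CPM without glucose and at 334, 248 and 250 CPM with it (0.61 ± 0.109, limma adjusted p = 0.000705). In all 3 genes every treated library was above every untreated one, and library 1, the one of the glucose group with 141 CPM of seed storage reads, was the highest.

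CESA3 was at 554, 499 and 581 CPM in ein2-5 without glucose and at 769, 711 and 690 CPM with it, higher by 0.41 ± 0.098 on the log2 scale (limma adjusted p = 0.00469, and 0.0525 in a fit of the ein2-5 libraries alone). CSI1 was at 238, 215 and 265 CPM without glucose and at 327, 341 and 348 CPM with it, higher by 0.50 ± 0.092 (limma adjusted p = 0.000798). Both pairs of groups were clear of each other, and the sizes were near those in Col-0.

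CESA1 was at 549, 505 and 579 CPM without glucose and at 690, 646 and 643 CPM with it. Its log2 difference of 0.28 ± 0.092 passed as deposited (limma adjusted p = 0.0273). The call was lost after TMM scaling (0.22, limma adjusted p = 0.0621), without the seed-rich libraries (0.34, limma adjusted p = 0.0851), in a fit of the ein2-5 libraries alone (limma adjusted p = 0.145) and with a replicate block fitted on the ein2-5 libraries only (limma adjusted p = 0.0817). It was lost as well without ein2-5 without glucose 1 (0.29, limma adjusted p = 0.0541), without ein2-5 without glucose 2 (0.23, limma adjusted p = 0.0875) or without ein2-5 with glucose 2 (0.29, limma adjusted p = 0.0569). COB was at 188, 175 and 176 CPM without glucose and at 247, 205 and 190 CPM with it, with no overlap (log2 difference 0.24 ± 0.102, limma adjusted p = 0.0713). The replicate block brought COB past the threshold in the fit over all libraries (limma adjusted p = 0.0291), and not in the fit of the ein2-5 libraries only (limma adjusted p = 0.0756). COB also passed when ein2-5 with glucose 3 was left out, at 0.32 (limma adjusted p = 0.0295), and without the seed-rich libraries, at 0.46 (limma adjusted p = 0.0175). KOR1 was at 434, 357 and 396 CPM without glucose and at 438, 376 and 354 CPM with it, so its groups overlapped, and the log2 difference was −0.02 ± 0.103 (limma adjusted p = 0.868).

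The glucose response was smaller in ein2-5 than in Col-0 for CESA2, CESA5 and CESA6, by a test of the difference itself. The response in ein2-5 less that in Col-0 was −1.30 ± 0.148 for CESA5 (limma adjusted p = 0.000144), −0.79 ± 0.154 for CESA2 (limma adjusted p = 0.00378) and −0.68 ± 0.136 for CESA6 (limma adjusted p = 0.00429). These 3 of 8 genes were called lower and 0 higher, against 13.3% and 5.49% of all genes, whose median was −0.11. For the other genes the difference did not pass, at 0.12 for CESA1 (95% interval −0.16 to 0.40), −0.14 for CESA3 (−0.44 to 0.15), 0.01 for COB (−0.31 to 0.32), 0.13 for KOR1 (−0.19 to 0.44) and −0.10 for CSI1 (−0.38 to 0.18). DESeq2 on the recovered reads called CESA1 higher, at 0.26 (adjusted p = 0.0226), and none of the other 4. It called 1810 of 19520 genes higher and 1832 lower.

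The size of the difference moved with the seed-rich libraries. Leaving them out does not match the seed reads: it sets 141 CPM in the 1 ein2-5 library left with glucose, which is assumed to vary like the other groups, against 764 to 1320 CPM without. In that fit the seed storage genes had a median log2 difference of −2.43 with glucose in ein2-5. This direction was set in advance, since the libraries left out were chosen by the reads of these genes. CESA5 was there called at −1.09 (limma adjusted p = 0.00172). CESA2 was then at −0.51 (limma adjusted p = 0.0558) and CESA6 at −0.57 (limma adjusted p = 0.0522). Thus 1 of 8 genes was called lower, against 6.54% of all genes in that fit. When ein2-5 with glucose 1 was left out instead, all 3 were called, CESA5 at −1.42 (limma adjusted p = 8.98e-06), CESA2 at −0.93 (limma adjusted p = 9.11e-05) and CESA6 at −0.76 (limma adjusted p = 0.000833). In that fit 3429 of all 19522 genes were called lower. After TMM scaling CESA5, CESA2 and CESA6 were also called, at −1.15, −0.64 and −0.53, where 1794 of all 19522 genes were called lower.

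Without glucose, ein2-5 and Col-0 differed clearly in a pair of the genes. CESA5 was higher in ein2-5, at 139 to 152 CPM against 84.1 to 93.3 CPM, or 0.70 ± 0.104 on the log2 scale (limma adjusted p = 0.000128). KOR1 was lower, at 357 to 434 CPM against 548 to 578 CPM, or −0.50 ± 0.103 on that scale (limma adjusted p = 0.00136). In both genes the libraries of the genotypes did not overlap, and both calls held after TMM scaling, at 0.53 and −0.67.

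CESA6, at 347 to 397 CPM against 304 to 331 CPM, passed narrowly as deposited (0.25 ± 0.096, limma adjusted p = 0.047) and not after TMM scaling (0.08, limma adjusted p = 0.496). Leaving out 1 library at a time ended the call for 9 of 12 libraries (limma adjusted p = 0.0554 to 0.139), and kept it for ein2-5 without glucose 2 and ein2-5 with glucose 1 and 3. As deposited, 2 of 8 genes were thus called higher and 1 lower, against 35.3% and 16% of all genes. The libraries of ein2-5 lay above those of Col-0 without overlap in 3 genes and below in 2, against 41.4% and 20.1% of all genes. After TMM scaling 1 was higher and 4 lower, against 26.3% and 27.3% of all genes, with CESA1 at −0.34 (limma adjusted p = 0.00601), COB at −0.29 (limma adjusted p = 0.0171) and CSI1 at −0.23 (limma adjusted p = 0.0482) added to KOR1. The TMM factors were 0.888 to 0.922 in Col-0 without glucose and 0.977 to 1.08 in the other libraries. CESA2 and CESA3 were called under neither scaling, CESA2 at 0.15 as deposited and −0.03 after TMM, and CESA3 at −0.06 and −0.23. DESeq2 on the recovered reads called CESA3 at −0.23 (adjusted p = 0.00317).

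**Figure D3:**
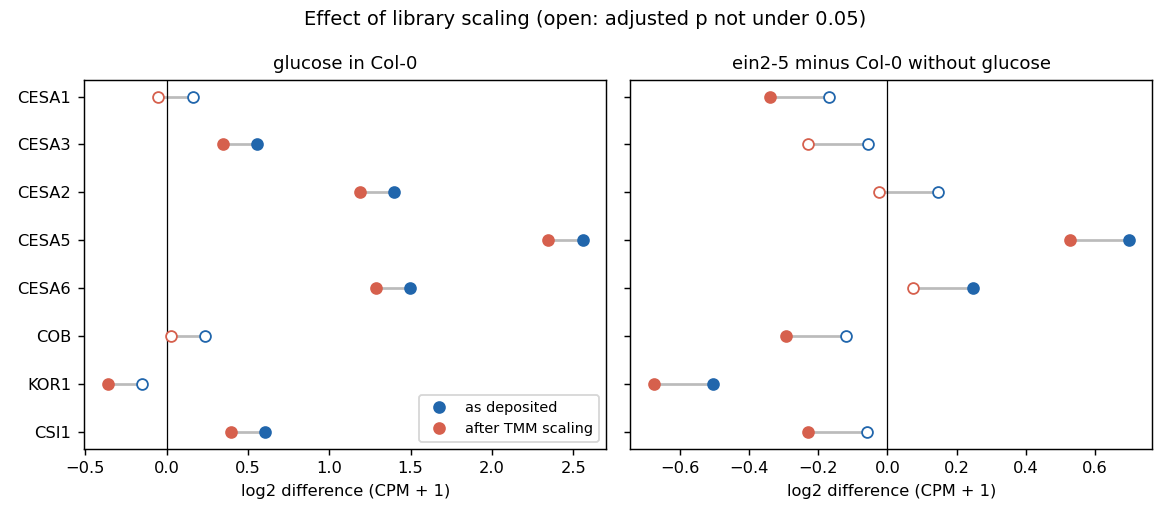
Log2 difference (CPM + 1) of the 8 genes with the deposited values (blue) and after TMM scaling (red), for glucose in Col-0 and for ein2-5 minus Col-0 without glucose; open points have an adjusted p not under 0.05. TMM moved every gene to the left, which made KOR1 a called decrease at −0.36 in the first comparison and left CESA5 the single called increase, 0.53, in the second.

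With glucose, 4 of the 8 genes were lower in ein2-5 than in Col-0 and 0 were higher, against 20.9% and 26.1% of all genes. The ein2-5 libraries lay clear of those of Col-0 and below in 6 genes, and above in 0, against 25% and 29.7% of all genes. CESA2 was at 248 to 334 CPM in ein2-5 against 425 to 434 CPM in Col-0 (log2 difference −0.64 ± 0.109, limma adjusted p = 0.000424). CESA5 was at 300 to 410 CPM against 514 to 534 CPM (−0.60 ± 0.104, limma adjusted p = 0.000498), the reverse of its order without glucose. CESA6 was at 626 to 729 CPM against 874 to 904 CPM (−0.44 ± 0.096, limma adjusted p = 0.00257).

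KOR1 was at 354 to 438 CPM in ein2-5 against 495 to 517 CPM in Col-0 (−0.38 ± 0.103, limma adjusted p = 0.00964). It was thus the gene called lower in ein2-5 in both conditions. The other genes did not pass, with CESA3 at −0.20 (−0.25, limma adjusted p = 0.0495, when ein2-5 with glucose 1 was left out, and −0.23, adjusted p = 0.00334, by DESeq2), CSI1 at −0.16, COB at −0.12 and CESA1 at −0.05. Without the seed-rich libraries, where 7.77% of all genes were called lower, 2 of the 4 calls were kept, CESA5 at −0.35 (limma adjusted p = 0.0419) and CESA2 at −0.36 (limma adjusted p = 0.0497), while CESA6 was at −0.29 (limma adjusted p = 0.131) and KOR1 at −0.20 (limma adjusted p = 0.329).

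Markers of other tissues differed between the genotypes too. Without glucose, 5 of 5 root hair genes were higher in ein2-5 (median log2 difference 0.75) and 2 of 5 green shoot genes were lower. There 11 of 11 seed storage genes were higher (median 4.21). Of all genes, 35.3% were called higher and 16% lower. After TMM scaling 4 of 5 root hair genes were higher and 3 of 5 green shoot genes lower, against 26.3% and 27.3% of all genes. With glucose, 5 of 5 root hair genes were higher (median 1.07), 3 of 5 green shoot genes lower, and 11 of 11 seed storage genes higher (median 5.43). Of all genes, 26.1% were then called higher and 20.9% lower. The part of these markers in the genotype differences of the cellulose genes was not tested.

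Levels of different genes were compared per kb of transcript. In Col-0 without glucose KOR1 was the most abundant at 220 ± 6.48 CPM per kb (SD, n = 3). CESA3 at 148 ± 5.63 and CESA1 at 145 ± 5.22 CPM per kb overlapped each other, and COB followed at 93.0 and CESA6 at 75.8 CPM per kb. CESA2 at 38.2, CSI1 at 34.4 and CESA5 at 21.3 CPM per kb closed the order, each clear of the next.

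With glucose in Col-0 the order was changed. CESA3 at 217 ± 7.10 and CESA6 at 214 ± 4.00 CPM per kb overlapped at the top, above KOR1 at 198 ± 4.55 and CESA1 at 162 ± 2.72 CPM per kb. CESA5, last without glucose, stood in place 5 at 127 CPM per kb, ahead of COB at 110 and CESA2 at 101 CPM per kb, and CSI1 was lowest at 52.6 CPM per kb. Per kb of coding sequence COB stood ahead of CESA5, at 188 against 163 CPM per kb.

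In ein2-5 without glucose KOR1 at 156, CESA3 at 142.5 and CESA1 at 129 CPM per kb were not separated from their neighbours, nor were CESA6 at 90.1 and COB at 85.3. CESA2 was at 42.4 CPM per kb, and CESA5 at 34.7 and CSI1 at 33.2 CPM per kb overlapped. In ein2-5 with glucose CESA3 led at 189 CPM per kb, and CESA6 at 159, CESA1 at 156 and KOR1 at 153 CPM per kb overlapped. COB at 102 and CESA5 at 84.0 CPM per kb overlapped, as did CESA5 and CESA2 at 65.3, and CSI1 was again lowest at 47.0 CPM per kb.

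The balance within the 5 catalytic genes, which library scaling cannot move, differed between all 4 groups. The summed share of CESA2, CESA5 and CESA6, per kb of transcript, was 31.5%, 31.7% and 31.6% in Col-0 without glucose and 54.5%, 53.4% and 53.6% with it. In ein2-5 it was 38.1%, 38.4% and 37.9% without glucose and 49.2%, 46.0% and 45.9% with it. Neither treatment group overlapped its control, and the ein2-5 shares lay between those of Col-0 without and with glucose.

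Of the summed level of all 5 catalytic genes, the share of CESA5 was 4.98% ± 0.130 (SD, n = 3) in Col-0 without glucose and 15.4% ± 0.258 with it. In ein2-5 it was 7.93% ± 0.399 and 12.8% ± 1.02. The share of CESA6 was 17.7% ± 0.246 and 26.1% ± 0.646 in Col-0, and 20.5% ± 0.109 and 24.3% ± 0.330 in ein2-5. The share of CESA2 was 8.93% ± 0.254 and 12.3% ± 0.0925 in Col-0. In ein2-5 it was 9.66% ± 0.204 and 9.94% ± 0.904, values that overlapped. CESA1 made up 33.8% ± 0.020 in Col-0 without glucose and 19.7% ± 0.074 with it, and CESA3 34.6% ± 0.102 and 26.5% ± 0.530. Transcript shares say nothing of the proteins in a complex.

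**Figure D4:**
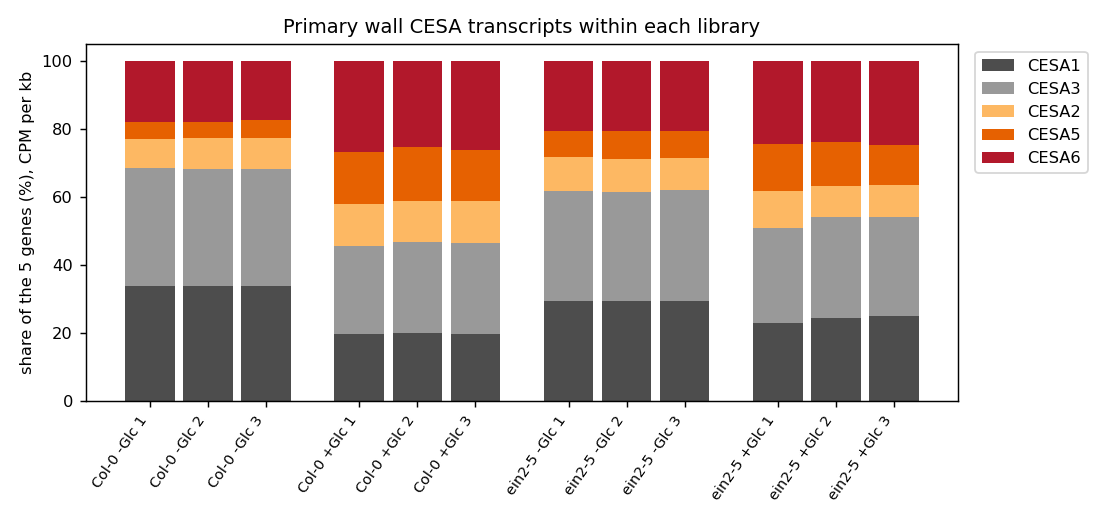
Share of each of the 5 primary wall CESA genes in their summed level per kb of transcript, in percent, 1 bar per library. CESA2, CESA5 and CESA6 (orange to red) made up 31.5% to 31.7% of the bar in Col-0 without glucose and 53.4% to 54.5% with it.

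Over all 12 libraries the 8 genes did not follow a single profile. Profiles were compared as the root mean square distance of log2(CPM + 1) values, each centred on its own mean, a description that rests on the shared libraries. CESA3 and CSI1 were each other's nearest members at 0.0702. Of 6021 named genes of at least 10 CPM, 0 were nearer to CSI1 and 2 nearer to CESA3. CESA1 and COB were next at 0.0923, with 45 other genes nearer to CESA1 and 16 nearer to COB. CESA2 and CESA6 followed at 0.124, with 3 other genes nearer to CESA2 and 12 nearer to CESA6. CESA5 stood apart, 0.418 from its nearest member CESA6, with 133 other genes nearer. KOR1 was 0.237 from CESA1, with 1108 other genes nearer. The 8 genes outside the set nearest to its mean profile were ATMPK8 (0.0736), PUB43 (0.0769), CSLC5 (0.0881), RWA2 (0.0882), RIN1 (0.09), KEA2 (0.0942), TTL1 (0.095) and POLGAMMA1 (0.097). Each of the 8 members lay farther from that mean, at 0.117 (CESA3) to 0.666 (CESA5), so the mean is not the profile of any 1 member. Among the genes outside the set, CSLC5 belongs to the family of xyloglucan backbone synthases, and RWA2 acts in the acetylation of wall polysaccharides. A shared function of these genes was not tested.

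The secondary wall genes, which make cellulose in xylem, were low throughout. CESA4, CESA7 and CESA8 stood at 1.17 to 2.43 CPM per kb in Col-0 without glucose, where the lowest primary wall gene, CESA5, stood at 21.3 CPM per kb. The 5 genes of that list (CESA4, CESA7, CESA8, IRX6 and CTL2) summed to 18.9 to 46.5 CPM per library. With glucose in Col-0, where 40.6% of all genes rose, 3 of 5 rose, CESA4 by 0.46, CESA7 by 0.45 and CESA8 by 0.60 on the log2 scale (limma adjusted p = 0.0037, 0.00121 and 0.000764), and IRX6 (0.22) and CTL2 (0.45) did not pass. In ein2-5, where 26.5% of all genes rose and 16.4% fell, 0 of 5 passed in either direction by limma, at −0.05 to 0.24, and 0 also after TMM scaling. All 5 were higher in ein2-5 than in Col-0 without glucose, by 0.69 (IRX6) to 1.05 (CTL2), against 35.3% of all genes. After TMM scaling all 5 were called higher there, against 26.3% of all genes. With glucose 4 of 5 were higher in ein2-5, against 26.1% of all genes.

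Among 15 measured genes of other steps of cellulose synthesis and complex trafficking, 5 rose and 1 fell with glucose in Col-0, against 40.6% and 19.7% of all genes, with a median of 0.15 beside 0.19 for all genes. After TMM scaling 4 were called higher and 5 lower, against 30.6% and 29.9% of all genes. CSI3, a relative of CSI1, rose by 1.51 (limma adjusted p = 2.9e-07), from 14.5 to 43.1 CPM. AT5G42860 rose by 1.83 (limma adjusted p = 1.15e-07). KLCR1, a kinesin light chain-related gene, fell by 0.60 (limma adjusted p = 1.13e-05). POM1, a chitinase-like gene known for its effect on cellulose content, was at 285 and 377 CPM, which passed as deposited (0.41, limma adjusted p = 0.0139) and not after TMM scaling (0.20, limma adjusted p = 0.166). In ein2-5, 4 rose and 1 fell, against 26.5% and 16.4% of all genes, CSI3 by 0.78, and the response of CSI3 in ein2-5 less that in Col-0 was −0.74 (limma adjusted p = 0.0116).

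For the supply of UDP-glucose, the substrate of the complex, genes of the same family went opposite ways: of 10 genes 2 rose and 2 fell in Col-0, against 40.6% and 19.7% of all genes. The neutral invertase gene CINV1 fell by 2.43 (limma adjusted p = 1.72e-10) and its relative CINV2 rose by 1.60 (limma adjusted p = 2.44e-07). The UDP-glucose pyrophosphorylase gene UGP1 rose by 1.17 (limma adjusted p = 2.25e-07), and UGP2 fell by 0.90 (limma adjusted p = 3.9e-05). None of the 6 sucrose synthase genes SUS1 to SUS6 passed in this comparison, with log2 differences of −0.18 to 0.04.

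Of 14 genes for xyloglucan, pectin and mannan, the polymers laid down beside cellulose, 10 rose and 1 fell in Col-0, with a median of 0.64, and 10 and 3 were called after TMM scaling. The shares of all genes were 40.6% and 19.7% as deposited and 30.6% and 29.9% after TMM. The mannan synthase gene CSLA9 rose from 18.4 to 154 CPM (limma adjusted p = 1.03e-09), its relative CSLA2 rose by 1.87 on the log2 scale (limma adjusted p = 2.22e-09), and the xyloglucan galactosyltransferase gene MUR3 by 1.31 (limma adjusted p = 2.21e-07). XXT1 fell by 0.42 (limma adjusted p = 0.00535). In ein2-5, 10 rose and 0 fell, against 26.5% and 16.4% of all genes. The response in ein2-5 less that in Col-0 was −1.55 for CSLA9 (limma adjusted p = 0.000165) and −0.79 for CSLA2 (limma adjusted p = 0.000922).

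Among 9 wall sensors and regulators of CESA genes, 6 rose and 3 fell with glucose in Col-0, against 40.6% and 19.7% of all genes, and 4 and 3 were called after TMM scaling, against 30.6% and 29.9%. In ein2-5, 2 rose and 2 fell, against 26.5% and 16.4% of all genes. In Col-0 the receptor kinase genes FER and THE1 fell by 0.47 (limma adjusted p = 0.000223) and by 0.61 (limma adjusted p = 2.48e-05). FEI2 rose by 1.18 in Col-0 (limma adjusted p = 4.73e-06). BES1, a brassinosteroid transcription factor known to bind CESA promoters, rose by 0.63 in Col-0 (limma adjusted p = 3.08e-05), from 47.7 to 74.4 CPM. In ein2-5 it was at 21.5 and 21.2 CPM, a difference from Col-0 of −1.12 without glucose (limma adjusted p = 8.91e-07) and −1.77 with it (limma adjusted p = 3.47e-08).

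**Figure D5:**
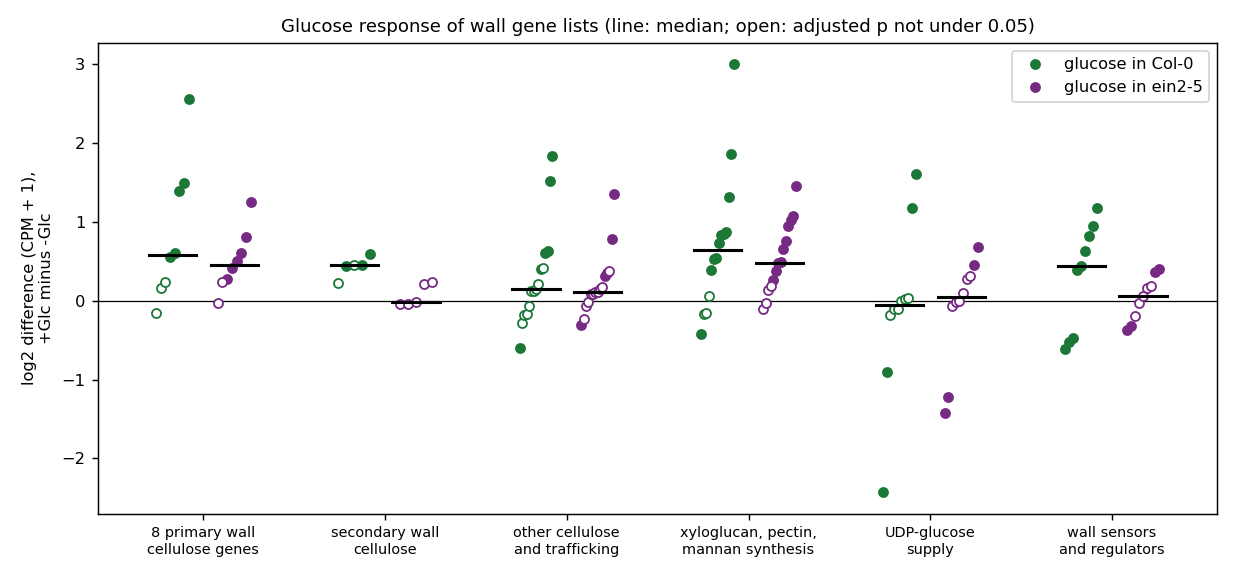
Log2 difference (CPM + 1) after glucose of each gene in the 8-gene set and in 5 lists of related wall genes, in Col-0 (green) and ein2-5 (purple); lines are medians and open points have an adjusted p not under 0.05. The median of the 8 genes was 0.58 in Col-0 and 0.46 in ein2-5, and that of the secondary wall list 0.45 and −0.02.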

How the data were processed

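Gene-level mRNA sequencing values of 12 libraries, 4 groups of 3, were analysed from 1 table of 19522 genes with 0 unused value columns. The authors aligned reads with TopHat to TAIR10 and counted them with HTSeq, per the submitters' processing notes; versions and the strand setting are not given in the sources used here. The deposited values were CPM, read from the values themselves, and in each library they are steps of what 1 read is worth: all 234264 values (100%) came out whole within 0.01 reads, giving 11470134 to 17461274 reads per library. No replicate pair agreed within sampling noise (chi-square per gene of 6.59 to 72.2).

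The main test was limma-trend on log2(CPM + 1) with no filter, 1 coefficient per group, the 12 libraries fitted together (8 residual degrees of freedom) and Benjamini-Hochberg adjustment over 19522 genes at 0.05. Fold values are ratios of group means of CPM, and log2 differences understate the change of low genes. Since whole reads were recovered, edgeR's quasi-likelihood test with TMM and DESeq2 were run on them as alternatives, beside TMM scaling of the CPM, pseudocounts of 0.25 and 5, a mean of at least 1 CPM, the replicate block, fits of the contrast's groups only, leaving out each library, and leaving out the 3 seed-rich libraries. The code was tested on simulated data. R 4.3.3, limma 3.58.1, edgeR 4.0.16, DESeq2 1.42.0 and Biopython 1.88 were used.

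Same-numbered libraries deviated together in ein2-5 without and with glucose (r = 0.611, 0.151 and 0.453), so the block is given there; in the other comparisons at least 1 of the 3 correlations was below 0.1. Lengths, promoters and overlaps came from RefSeq TAIR10.1, matched by locus code for 19352 genes (170 unmatched). Genes named were the 8 members, all secondary wall genes, EIN2, up to 4 called genes of each other list and comparison by size, and the 8 nearest profiles; POM1, XXT1, BES1, FER and THE1 were added by hand where they ranked lower. Members, lists and tests were chosen with earlier results of these data known. Of 87 listed genes 83 were measured.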

Additional observations from a re-analysis of the deposited data

Results flagged for a closer look

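The glucose response of 3 of the 8 genes differed between the genotypes by a test of the difference itself (limma on log2(CPM + 1)). The response in ein2-5 less that in Col-0 was −1.30 for CESA5, with a rise in every glucose library of both genotypes (limma adjusted p = 0.000144). It was −0.79 for CESA2 (limma adjusted p = 0.00378) and −0.68 for CESA6 (limma adjusted p = 0.00429). Without the 3 seed-rich libraries CESA5 was called (−1.09, limma adjusted p = 0.00172) and CESA2 (−0.51, limma adjusted p = 0.0558) and CESA6 (−0.57, limma adjusted p = 0.0522) were not. That fit sets 1 ein2-5 library with glucose, at 141 CPM of seed storage reads, against 3 without at 764 to 1320 CPM. The part of the seed storage reads in these values was not tested.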

How the results depend on the processing

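CESA2, CESA5 and CESA6 kept their direction and their call for glucose in Col-0 and in ein2-5 under all alternatives run. For glucose in Col-0, 1 gene, KOR1, was called lower with TMM scaling, edgeR, DESeq2 or the contrast's groups only. Of all genes, 5842, 5843, 5853 and 4273 were called lower in those fits. CESA1 was at −0.0508 (TMM), −0.0498 (edgeR) and −0.0601 (DESeq2). For glucose in ein2-5, KOR1 was at 0.15 without the seed-rich libraries and at −0.11 to 0.0437 over the libraries left out in turn. For ein2-5 minus Col-0 without glucose, 1 gene was called higher with TMM, edgeR, DESeq2 or the contrast's groups only. Of all genes, 5135, 5188, 4902 and 7064 were called higher in those fits. With a library left out 1 to 2 were called higher, and 5599 to 7259 of all genes. In this comparison 4 genes were lower with TMM, 3 with edgeR and 5 with DESeq2. Of all genes, 5330, 5306 and 5167 were lower in those fits, and 3121 as deposited. CESA2 was at −0.0252, −0.0246 and −0.0289 in the same order. With a library left out CESA3 was at −0.11 to 0.00437 and CSI1 at −0.13 to 0.0162. For ein2-5 minus Col-0 with glucose, leaving out the seed-rich libraries put CESA1 at 0.0165 and COB at 0.10, against −0.05 and −0.12 as deposited. For the difference of the responses, CESA2 was at −0.51 and CESA6 at −0.57 without the seed-rich libraries. In this comparison DESeq2 gave 1 gene higher, CESA1 at 0.26 (adjusted p = 0.0226), against 1810 of 19520 genes called higher. There CESA3 was at 0.0053 (TMM) and 0.00337 (edgeR), CSI1 at 0.0467 (TMM), 0.0413 (edgeR) and 0.0371 (DESeq2), and COB at −0.103 to 0.0849 with a library left out. Library scaling sets the zero point of a comparison, and some of these values moved instead with a library left out. Causes of the moved values were not tested. The replicate block in the fit over all libraries brought COB past the threshold in ein2-5 (limma adjusted p = 0.0291). On the ein2-5 libraries only it did not pass (limma adjusted p = 0.0756). COB also passed with the block in Col-0 (0.24, limma adjusted p = 0.0232). There same-numbered libraries deviated with r = 0.176, −0.11 and 0.413, which does not settle if they are paired. The block changed no other call of the 8 genes in the fit over all libraries. Per kb of coding sequence, the place among the 8 genes in Col-0 with glucose was 1 for CESA6, 2 for KOR1, 3 for CESA3, 5 for COB and 6 for CESA5, and in Col-0 without glucose 2 for CESA1 and 3 for CESA3. In ein2-5 with glucose it was 2 for KOR1, 3 for CESA6 and 4 for CESA1, and without glucose 4 for COB and 5 for CESA6. The summed share of CESA2, CESA5 and CESA6 was then 32.3% and 54.8% in Col-0 without and with glucose and 38.9% in ein2-5 without. Depth was ample for the 8 genes, the lowest at 84.1 CPM against 0.172 to 0.262 CPM for 3 reads; the 3 libraries per group limit small differences.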

Other observations

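The run CCACCGACAG, picked after the sequences were read, lay in 8 of 18917 promoters. Beside CESA1, COB and KOR1 these were POM1, a chitinase-like gene known for its effect on cellulose content, AT1G05860, AT3G10810, AT3G24840 and EXPB3, an expansin gene. AT1G05860 is the divergent neighbour of POM1, so both hold the same copy. The genes did not move alike with glucose in Col-0. EXPB3 rose from 2.12 to 22.6 CPM (log2 difference 2.91, limma adjusted p = 1.05e-08) and AT3G24840 from 8.93 to 18.2 CPM (0.96, limma adjusted p = 0.000142), whereas KOR1 was at 559 and 503 CPM (−0.15, limma adjusted p = 0.221) and AT1G05860 at 7.22 and 8.47 CPM (0.21, limma adjusted p = 0.303). No test of the run was made.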
